A study of Mus musculus with 12 samples.

Results

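The corticosteroid receptor genes Nr3c1 and Nr3c2, the enzyme gene Hsd11b1 and 7 genes that glucocorticoids are known to induce (Fkbp5, Sgk1, Tsc22d3, Zbtb16, Sult1a1, Errfi1 and Pdk4) were followed in the mouse cortex and hippocampus after cranial irradiation. They were taken from the expression tables by gene symbol, and all 10 were found among 23183 symbols. The animals were male C57BL/6 mice, bought at 7 weeks of age and acclimatized for 1 week, that received a single whole-brain X-ray dose of 10 Gy (IR) or a sham exposure of 0 Gy (Con). RNA was sequenced 3 months later, after poly(A) selection by the study's methods and from total RNA by the labels, which was not settled, in 4 groups of 3 libraries each, namely cortex Con, cortex IR, hippocampus Con and hippocampus IR. The sources do not say whether each library came from a separate mouse, so the p-values here measure only the spread between these libraries. The study used these data to ask which transcripts accompany anxiety-like behavior in the chronic phase after irradiation.

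Corticosterone, the main glucocorticoid of the mouse, crosses the cell membrane and binds the glucocorticoid receptor (Nr3c1) or, with higher affinity, the mineralocorticoid receptor (Nr3c2), both of which then enter the nucleus and act as transcription factors. The mineralocorticoid receptor is known for its high abundance in hippocampal neurons, whereas the glucocorticoid receptor is found in most brain cells. Many induced genes carry glucocorticoid response elements, palindromes in which the receptor binds as a dimer.

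Promoter sequence was at hand for 8 of the 10 genes, as RefSeq windows on GRCm38.p6 that span 250 bases before each transcript start and the 50 after it. The palindrome searched for was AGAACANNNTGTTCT, and the single element was AGAACA, each on both strands, so that every palindrome also counts as 2 single elements. Of the 16 windows of these genes, 1 held the palindrome, against 3 of all 32851 windows (0.00913%). It belonged to Sgk1, and lay between positions -189 and -175 from a transcript start. The single element was in 5 of the 16 windows (31.2%), from Sgk1, Sult1a1 and Tsc22d3, against 19% of all windows. Windows of a gene are not independent, and Sgk1 alone had 6 of the 16. Counted by gene, the element was in 3 of 8, against 5750 of 27025 genes with windows. The Sgk1 stretch is shown because it carries the palindrome, and the Tsc22d3 stretch because Tsc22d3 had the lowest p-value of the 10 genes after irradiation. The Sgk1 stretch, chr10:21993640-21993889 on the plus strand, lies inside longer Sgk1 transcripts and overlaps no Sgk1 exon in GENCODE M21. The Tsc22d3 stretch, chrX:140600660-140600772 on the minus strand, lies before the first Tsc22d3 exon. Both are written 5′ to 3′ on the strand of the gene, with the palindrome of Sgk1 and the element of Tsc22d3 in capitals. A further single element of the Sgk1 stretch, at positions -242 to -237, is left in lower case.
Sgk1: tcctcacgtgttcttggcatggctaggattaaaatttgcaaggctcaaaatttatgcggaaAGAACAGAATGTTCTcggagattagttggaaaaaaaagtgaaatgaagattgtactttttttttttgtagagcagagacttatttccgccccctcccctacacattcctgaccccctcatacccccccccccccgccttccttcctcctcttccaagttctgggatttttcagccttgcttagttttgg
Tsc22d3: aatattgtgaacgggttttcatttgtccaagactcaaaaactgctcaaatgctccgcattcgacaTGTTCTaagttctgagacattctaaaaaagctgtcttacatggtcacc
These letter matches describe the windows only and were not tested for receptor binding. The files hold 1 value per gene symbol, so transcripts that start at these sites cannot be told apart from the other transcripts of the gene.

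The tissue labels fitted the regional markers. Summed values of 6 hippocampal field markers, in FPKM (fragments mapped to a transcript, scaled by its length and by the fragments mapped in the library), were 172 to 205 in the hippocampus libraries and 42.5 to 66.9 in the cortex libraries. For 6 cortical layer markers the sums were 43.3 to 54.6 and 125 to 145. A set of 3 libraries stood apart in 6 choroid plexus markers, with summed FPKM of 440.2 in cortex IR 2, 1065 in hippocampus Con 2 and 1656 in hippocampus IR 1, whereas the other 9 libraries had 4.74 to 66.1. Values of the 10 genes without these libraries are given where they turned in sign or moved by 1.5 times or more. All 10 genes passed the expression filter of 0.5 FPKM in at least 3 of the 6 libraries in both tissues. Fewer cells of a type and less RNA per cell cannot be told apart in these tissue samples.

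**Figure D1:**
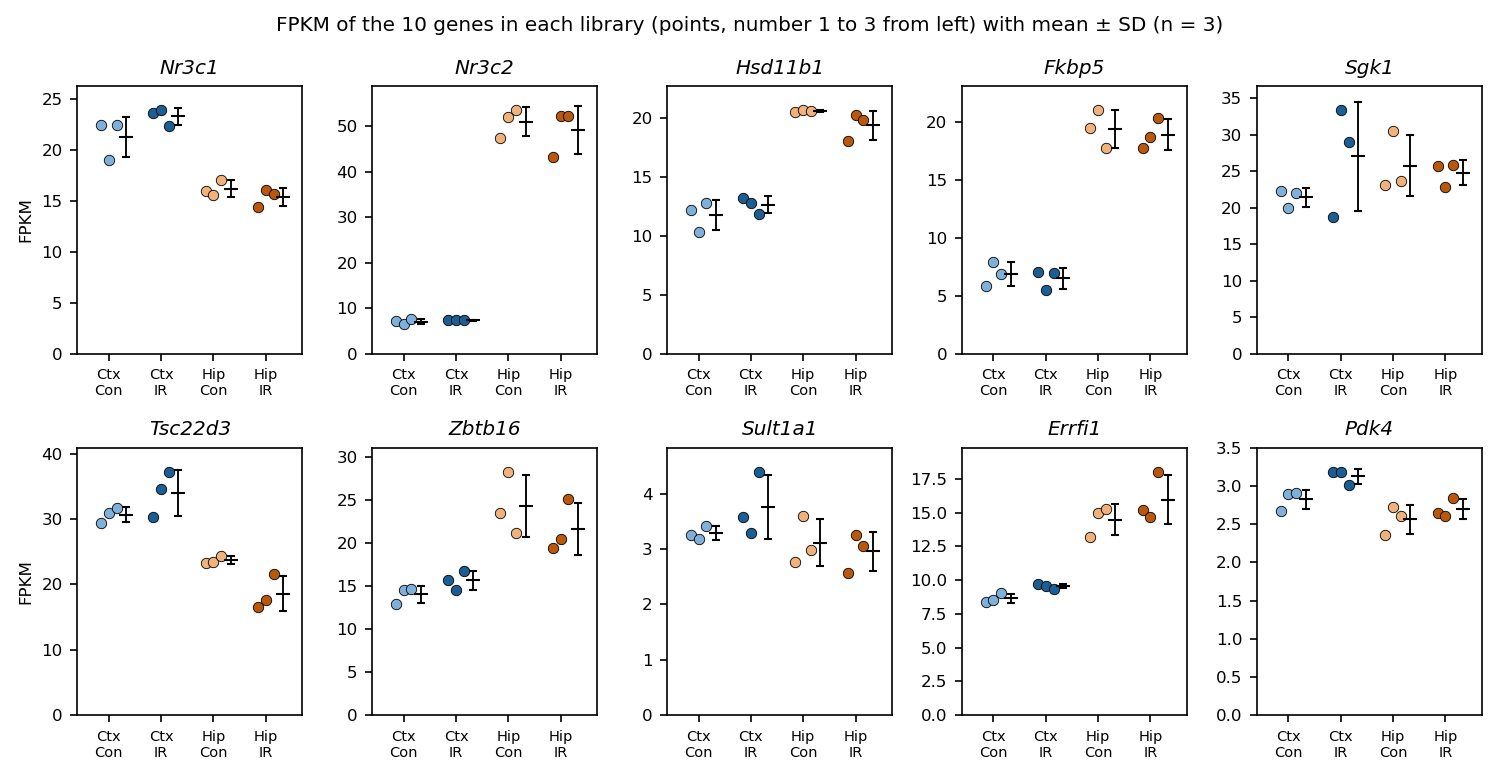
FPKM of the 10 genes in each of the 12 libraries, with a panel per gene, a linear axis from 0 and points for libraries 1 to 3 from left to right (Ctx, cortex; Hip, hippocampus). Bars give the mean ± SD of each group (n = 3). Nr3c2 and Fkbp5 separated the tissues most, and in the hippocampus all 3 Tsc22d3 points of IR lay below those of Con.

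Between irradiated and control mice, no gene of the set passed the adjusted threshold in either tissue. In the cortex 0 of the 10 genes passed an adjusted p of 0.05 in limma on log2(FPKM + 1), where 0.725% of 14065 genes passed, and 0 had an unadjusted p under 0.05, where 14.1% did. In the hippocampus 0 of 10 passed the adjusted threshold, where 0.0285% of 14043 genes passed, and 1, Tsc22d3, had an unadjusted p under 0.05, where 13.9% did. By the criterion of the study, a fold of 1.5 either way with an unadjusted p under 0.05, 0 of 10 passed in either tissue, where 0.483% and 0.527% of all genes passed. The ratio of the IR mean to the Con mean lay between 0.95 and 1.26 in the cortex and between 0.785 and 1.1 in the hippocampus. The 95% intervals of the fold, taken on FPKM + 1, included 1.5 or more for 1 gene in the cortex, Sgk1, and for 0 in the hippocampus. They included 0.667 or less for 0 genes in either tissue. With 3 libraries against 3, an exact permutation test of a single gene could not go below p = 0.1.

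**Figure D2:**
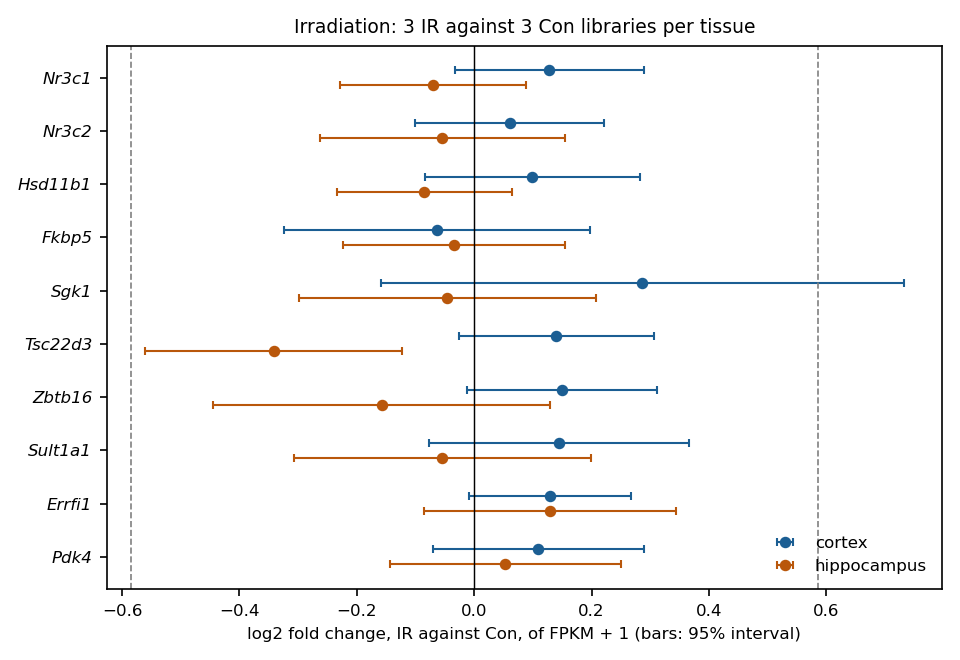
Log2 fold change of IR against Con for the 10 genes in the cortex and the hippocampus (3 libraries per group), with 95% intervals from limma and dashed lines at a fold of 1.5 either way. Tsc22d3 in the hippocampus was the only one of the 20 intervals that left out 0, and Sgk1 in the cortex had the widest interval.

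Nr3c1, the glucocorticoid receptor gene on chromosome 18, measured 22.5, 19.0 and 22.4 FPKM in the cortex of Con mice and 23.7, 23.9 and 22.4 FPKM in IR. Con 1 and Con 3 lay within the IR range, and only Con 2 stood lower. The log2 fold change was 0.13 (95% interval -0.03 to 0.29, adjusted p = 0.464). In the hippocampus Nr3c1 measured 16.0, 15.5 and 17.1 FPKM in Con and 14.4, 16.0 and 15.7 FPKM in IR, with a log2 fold change of -0.07 (-0.23 to 0.09, adjusted p = 0.644). The groups overlapped in both tissues.

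Nr3c2, the mineralocorticoid receptor gene (chr8:76899442-77245012, plus strand), measured 7.08, 6.42 and 7.51 FPKM in cortex Con and 7.29, 7.42 and 7.30 FPKM in cortex IR. All 3 IR values fell inside the Con range. In the hippocampus it measured 47.4, 52.0 and 53.5 FPKM in Con and 43.2, 52.2 and 52.2 FPKM in IR, where only IR 1, a library with high choroid plexus markers, lay below the Con range. The log2 fold changes were 0.06 (-0.10 to 0.22, adjusted p = 0.759) and -0.05 (-0.26 to 0.15, adjusted p = 0.804), and the second turned to 0.05 without hippocampus Con 2 and IR 1.

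The balance of the receptor genes followed the tissue, and Con and IR overlapped within each tissue. The ratio of Nr3c2 to Nr3c1 in FPKM, a scale that accounts for transcript length, was 0.315 to 0.338 in cortex Con, 0.308 to 0.326 in cortex IR, 2.97 to 3.35 in hippocampus Con and 2.99 to 3.32 in hippocampus IR. The glucocorticoid receptor transcript was thus the more abundant in all 6 cortex libraries and the mineralocorticoid receptor transcript in all 6 hippocampus libraries.

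**Figure D3:**
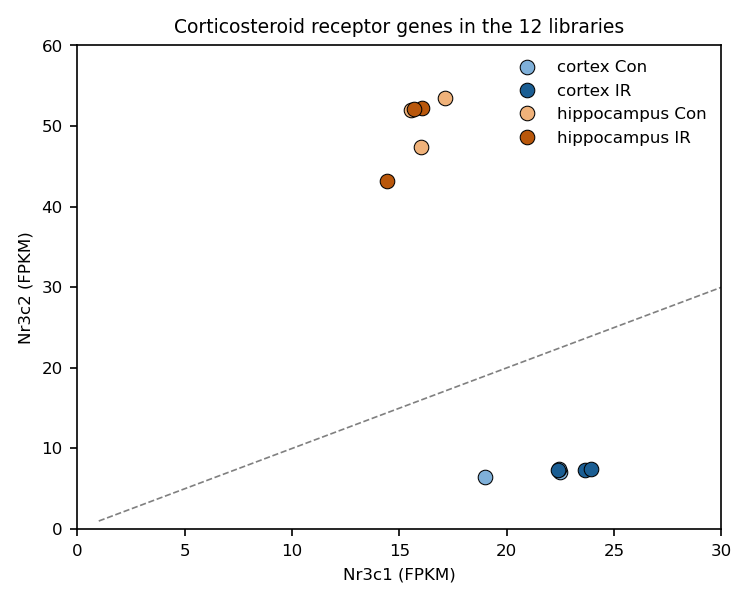
Nr3c2 against Nr3c1 in FPKM, with 1 point per library and a dashed line of equal values. All 6 hippocampus libraries lay above the line (43.2 to 53.5 FPKM of Nr3c2) and all 6 cortex libraries below it (6.42 to 7.51 FPKM), with Con and IR intermixed.

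Hsd11b1 (chr1:193221634-193264075, minus strand) encodes the reductase that regenerates active corticosterone from its inert keto form inside cells. It measured 12.2, 10.3 and 12.7 FPKM in cortex Con and 13.2, 12.8 and 11.8 FPKM in cortex IR, with overlapping groups and a log2 fold change of 0.10 (-0.08 to 0.28, adjusted p = 0.636). In hippocampus Con the 3 values almost coincided at 20.5, 20.6 and 20.6 FPKM, while IR had 18.0, 20.3 and 19.8 FPKM. All 3 IR values were below all 3 Con values, and the log2 fold change was -0.08 (-0.23 to 0.06, adjusted p = 0.560). It was -0.03 without Con 2 and IR 1, of which IR 1 had the lowest value. Hsd11b1 and Tsc22d3 were the 2 of 10 genes whose groups did not overlap in the hippocampus, both lower in IR, where the groups of 19.8% of all genes did not overlap and 9.36% were lower.

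Fkbp5 (chr17:28399094-28517527, minus strand) encodes a co-chaperone that restrains the glucocorticoid receptor and is itself induced by it. In the cortex it measured 5.80, 7.88 and 6.91 FPKM in Con and 7.08, 5.47 and 7.0 FPKM in IR. In the hippocampus it measured 19.5, 21.0 and 17.8 FPKM in Con and 17.7, 18.7 and 20.4 FPKM in IR. The groups were interleaved in both tissues, with log2 fold changes of -0.06 (-0.32 to 0.20, adjusted p = 0.856) and -0.03 (-0.22 to 0.15, adjusted p = 0.871). Both signs turned in single leave-outs, with ranges of -0.16 to 0.04 and -0.09 to 0.02, and the cortex value was 0.04 without the choroid-high IR 2 and the hippocampal value 0.06 without the choroid-high Con 2 and IR 1.

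Sgk1 (chr10:21882184-21999903, plus strand), the gene of a kinase that acts on ion channels and transporters, had the largest mean difference in the cortex and the largest spread. It measured 22.4, 19.9 and 22.0 FPKM in Con and 18.8, 33.4 and 29.1 FPKM in IR. IR 2 and IR 3 lay above all Con libraries and IR 1 lay below them. The log2 fold change was 0.29 (-0.16 to 0.73, adjusted p = 0.556). It was 0.52 without IR 1 (adjusted p = 0.0758) and 0.12 without IR 2 (adjusted p = 0.838), the cortex library with high choroid plexus markers. In the hippocampus Sgk1 measured 23.2, 30.5 and 23.6 FPKM in Con and 25.7, 22.8 and 25.9 FPKM in IR. The highest hippocampal value was in a library with high choroid plexus markers, Con 2. In IR 1, the hippocampus library with the highest sum of those markers, Sgk1 was 25.7 FPKM, slightly below IR 3. The log2 fold change there was -0.05 (-0.30 to 0.21, adjusted p = 0.874), and 0.05 without Con 2 and IR 1. The part of choroid plexus RNA in these Sgk1 values was not tested.

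Tsc22d3 (chrX:140539528-140600659, minus strand) encodes the glucocorticoid-induced leucine zipper protein, a mediator of anti-inflammatory effects. In the hippocampus it measured 23.3, 23.4 and 24.4 FPKM in Con and 16.5, 17.7 and 21.6 FPKM in IR. All 3 IR libraries lay below all 3 Con libraries, and IR 3 was the nearest to them. The log2 fold change was -0.34 (SE 0.095, -0.56 to -0.12), with an unadjusted p of 0.00701 and an adjusted p of 0.259 in limma, so it did not pass the adjusted threshold. It ranged from -0.45 to -0.27 when single libraries were left out, and was -0.27 without the choroid-high Con 2 and IR 1 (unadjusted p = 0.0561).

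In the cortex Tsc22d3 measured 29.4, 30.9 and 31.7 FPKM in Con and 30.3, 34.6 and 37.2 FPKM in IR. The groups overlapped through IR 1, and the log2 fold change was 0.14 (-0.03 to 0.31, adjusted p = 0.440), and 0.13 without the choroid-high IR 2 (adjusted p = 0.654). The difference between the tissues, hippocampus minus cortex, was -0.48 (-0.76 to -0.20), with an unadjusted p of 0.00243 and an adjusted p of 0.242. Without the 3 choroid-high libraries it was -0.40 (unadjusted p = 0.0263, adjusted p = 0.831). With all 12 libraries Tsc22d3 was the only one of the 10 genes with an unadjusted p under 0.05 for that difference, where 10.4% of 14459 genes had one and 0.083% passed the adjusted threshold. Under some alternatives or leave-outs Sgk1, Zbtb16, Hsd11b1 and Nr3c1 also had an unadjusted p under 0.05.

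Markers of several cell types also lay apart between the arms in the hippocampus, as Tsc22d3 did. Of the genes on the lists named here 1 passed the adjusted threshold, the microglial receptor gene Csf1r (log2 -0.84, adjusted p = 0.0126). The summed FPKM of 6 microglia markers, all above 0 in every library, was 85.1 to 104.6 in Con and 66.1 to 76.3 in IR, and 0 of 6 had log2 fold changes above 0, with 4 whose groups did not overlap, where the groups of 19.8% of all genes did not and 9.36% were lower. The 6 endothelial markers summed to 64.2 to 71.7 in Con and 78.2 to 81.5 in IR, but 4 of 6 lay above 0 and the groups were apart for 1 of 6, Cldn5, a tight junction gene, with means of 21.2 and 29.3 FPKM. Tek and Slco1a4 had values below 0 (-0.19 and -0.07). Summed astrocyte markers, in which Slc1a2 and Gfap weigh most, overlapped at 683 to 779 and 649 to 701, while 0 of 6 lay above 0 and the groups of Aldh1l1, Slc1a3 and Gja1 did not overlap, with lower values in IR. Of the 6 oligodendrocyte markers, 2 lay above 0 (Mbp and Mobp), and the groups of 2, Mog and Mag, did not overlap, with lower values in IR. Summed neuron markers overlapped, at 3285 to 3614 and 3336 to 3467. Fibroblast markers summed to 28.1 to 44.2 in Con and 35.9 to 59.5 in IR, also with overlap. All 6 of them lay above 0 in the hippocampus (median 0.25), with the groups of 1 apart, and 0 of 6 did in the cortex (median -0.19). For the difference between the tissues 6 of 6 lay above 0 (median 0.44). The part of cell composition in the Tsc22d3 values was not tested.

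Zbtb16 (chr9:48654297-48836222, minus strand), which encodes a zinc finger transcriptional repressor, measured 12.9, 14.5 and 14.6 FPKM in cortex Con and 15.7, 14.5 and 16.7 FPKM in cortex IR. In the hippocampus the values were 23.5, 28.3 and 21.2 FPKM in Con and 19.5, 20.4 and 25.1 FPKM in IR. The highest hippocampal value was in Con 2 and the lowest in IR 1, the libraries with high choroid plexus markers. The log2 fold changes were 0.15 (-0.01 to 0.31, adjusted p = 0.393) and -0.16 (-0.44 to 0.13, adjusted p = 0.574), and the second was 0.02 without those libraries. Without the choroid-high cortex IR 2 the cortex value was 0.20, with an unadjusted p of 0.0339 and an adjusted p of 0.393.

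Sult1a1 (chr7:126672865-126676432, minus strand), the gene of a sulfotransferase that conjugates phenols, was among the least abundant of the set. It measured 3.25, 3.18 and 3.42 FPKM in cortex Con and 3.59, 3.29 and 4.4 FPKM in cortex IR, and 2.77, 3.60 and 2.99 FPKM in hippocampus Con and 2.57, 3.26 and 3.06 FPKM in hippocampus IR. The groups overlapped in both tissues, with log2 fold changes of 0.14 (-0.08 to 0.37, adjusted p = 0.558) and -0.05 (-0.31 to 0.20, adjusted p = 0.842). The second was 0.10 without hippocampus Con 2 and IR 1, the highest and the lowest of the 6 values, and the first was 0.22 without cortex IR 2.

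Errfi1 (chr4:150853919-150868892, plus strand) encodes a feedback inhibitor of epidermal growth factor receptors. In the cortex it measured 8.36, 8.55 and 9.04 FPKM in Con and 9.68, 9.60 and 9.37 FPKM in IR, so that every IR value exceeded every Con value. The log2 fold change was 0.13 (-0.01 to 0.27, adjusted p = 0.387). In the hippocampus it measured 13.2, 14.95 and 15.3 FPKM in Con and 15.2, 14.7 and 18.0 FPKM in IR, again with a log2 fold change of 0.13 (-0.09 to 0.34, adjusted p = 0.538), but with overlapping groups. Averaged over both tissues the effect was 0.13 (0.01 to 0.25), with an unadjusted p of 0.0371 and an adjusted p of 0.236. With all 12 libraries it was the 1 of 10 genes with an unadjusted p under 0.05 on average, where 18.7% of 14459 genes had one, and 0 of 10 passed the adjusted threshold, where 1.98% did. Its unadjusted p was 0.0186 to 0.108 when single libraries were left out and 0.0585 without the 3 choroid-high libraries (log2 0.15), and Sgk1 (0.00908) and Tsc22d3 (0.0155) each fell under 0.05 in 1 of 12 leave-outs.

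Pdk4 (chr6:5483351-5496309, minus strand) encodes a kinase that switches off pyruvate dehydrogenase. It measured 2.67, 2.89 and 2.90 FPKM in cortex Con and 3.19, 3.18 and 3.01 FPKM in cortex IR, so that the groups were apart, at a log2 fold change of 0.11 (-0.07 to 0.29, adjusted p = 0.591). In the hippocampus Con had 2.36, 2.73 and 2.61 FPKM and IR had 2.64, 2.60 and 2.84 FPKM, with overlap and a log2 fold change of 0.05 (-0.14 to 0.25, adjusted p = 0.796), which was 0.10 without Con 2 and IR 1. Errfi1 and Pdk4 were the 2 of 10 genes whose groups did not overlap in the cortex, both higher in IR, where the groups of 20.3% of all genes did not overlap and 11.2% were higher.

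By role, the 7 induced targets had a median log2 fold change of 0.14 in the cortex, with 6 of 7 above 0, beside a median of 0.00 over all genes tested, and 0.13 with 7 of 7 above 0 without IR 2. Summed markers of oligodendrocytes (1050 to 1302 FPKM in Con, 1306 to 1583 in IR) and of endothelial cells (73.7 to 87.7 and 90.6 to 103.7) did not overlap in the cortex. All 6 oligodendrocyte markers lay above 0 there, with the groups of 2 apart, Mbp and Mobp, and Mbp weighed most in the sum. Of the endothelial markers 4 of 6 lay above 0 and the groups of 3 were apart. In the cortex the groups of 20.3% of all genes did not overlap, and 11.2% were higher. Microglia markers summed to 85.2 to 95.3 FPKM in cortex Con and 65.2 to 88.7 in cortex IR, with 0 of 6 above 0, a median of -0.19 and the groups of 2 apart. The part of these cell types in the cortex values was not tested. In the hippocampus their median was -0.05, with 2 of 7 above 0, beside -0.01 over all genes, but without Con 2 and IR 1 it was 0.06 with 6 of 7 above 0, all but Tsc22d3. The direction in the hippocampus therefore depended on those libraries. The receptors and Hsd11b1 lay above 0 in the cortex and below 0 in the hippocampus, without passing the test in either, and Nr3c2 was above 0 in the hippocampus without Con 2 and IR 1.

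Most of these genes differed between the tissues. Between hippocampus Con and cortex Con, 7 of the 10 genes passed an adjusted p of 0.05, where 44.2% of 14459 genes did. Nr3c2, Fkbp5, Hsd11b1, Zbtb16 and Errfi1 were higher in the hippocampus, and Nr3c1 and Tsc22d3 were lower. The column names of the cortex files and the hippocampus files follow different patterns, so tissue and a possible separate run of the processing cannot be told apart.

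Nr3c2 averaged 7.01 ± 0.549 FPKM in cortex Con and 51.0 ± 3.15 FPKM in hippocampus Con (SD, n = 3), a ratio of means of 7.28. Its log2 difference of 2.70 (2.53 to 2.87, adjusted p = 7.96e-11) ranked 36 by size among the 14459 genes. Nr3c1 averaged 21.3 ± 1.99 and 16.2 ± 0.806 FPKM, a ratio of 0.761 and a log2 difference of -0.37 (adjusted p = 0.000952). The receptor genes therefore differed between the tissues in opposite directions.

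Fkbp5 averaged 6.86 ± 1.04 FPKM in cortex Con and 19.4 ± 1.64 FPKM in hippocampus Con, a ratio of 2.83 and a log2 difference of 1.38 (1.15 to 1.62, adjusted p = 3.07e-07). Hsd11b1 was 1.75 times as high in the hippocampus (log2 difference 0.76, adjusted p = 2.95e-06), Zbtb16 1.74 times (0.75, adjusted p = 9.47e-05) and Errfi1 1.67 times (0.68, adjusted p = 1.21e-05). Tsc22d3 had a ratio of 0.772 (-0.36, adjusted p = 0.00599). The induced targets thus did not share a direction between the tissues.

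Sgk1 (log2 difference 0.25, -0.12 to 0.61), Sult1a1 (-0.06, -0.29 to 0.17) and Pdk4 (-0.10, -0.26 to 0.06) did not pass the test between the tissues, and without the choroid-high libraries those of Sgk1 and Sult1a1 were 0.12 and -0.14. Sgk1 was nevertheless higher in all 3 hippocampus Con libraries than in all 3 cortex Con libraries, so that 8 of 10 genes did not overlap, where 49.7% of all genes did not. In the IR libraries the same 7 genes passed with the same signs, with log2 differences of 2.58 for Nr3c2, 1.41 for Fkbp5 and -0.57 for Nr3c1. The Tsc22d3 difference was -0.84 in IR, and that of Sgk1 was -0.09. Without the choroid-high libraries 7 genes passed in each arm, and the values in IR were -0.75 for Tsc22d3 and 0.05 for Sgk1.

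**Figure D4:**
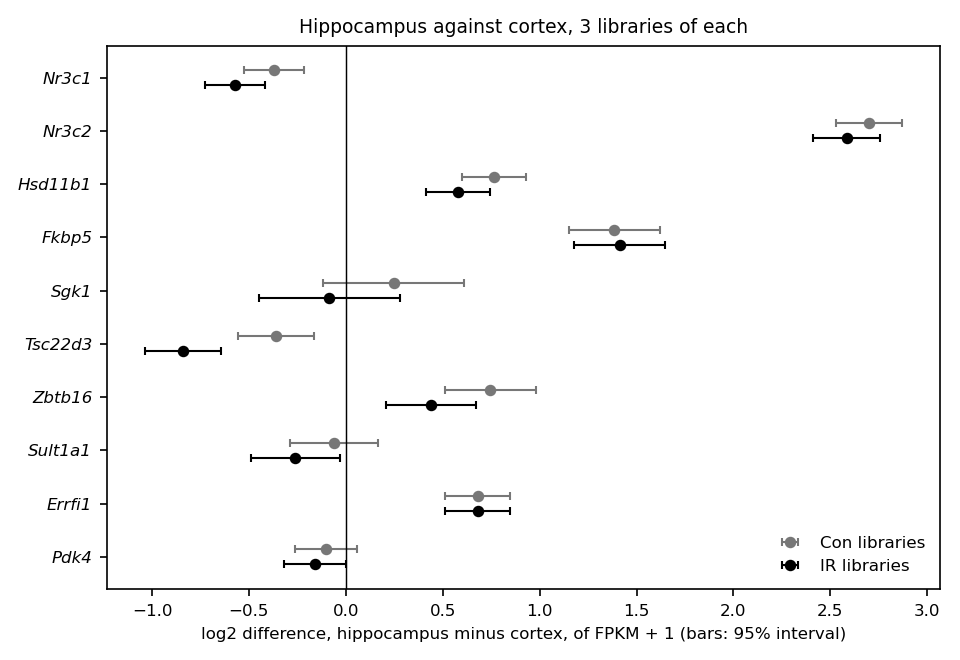
Log2 difference of hippocampus minus cortex for the 10 genes in the Con and the IR libraries (3 of each tissue), with 95% intervals from limma. The estimates for Nr3c2 (2.70 and 2.58) and Fkbp5 (1.38 and 1.41) were the largest in both arms, and that for Tsc22d3 was -0.36 in Con and -0.84 in IR.

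Ordered by level in cortex Con, Tsc22d3 came first at 30.7 ± 1.15 FPKM, followed by Sgk1 at 21.4 ± 1.32 and Nr3c1 at 21.3 ± 1.99 FPKM, which lay within each other's spread. Zbtb16 and Hsd11b1 came next, at 14 ± 0.967 and 11.7 ± 1.28 FPKM, then Errfi1, Nr3c2 and Fkbp5 at 8.65 ± 0.351, 7.01 ± 0.549 and 6.86 ± 1.04 FPKM, of which the last pair did not differ beyond their spread. Sult1a1 at 3.29 ± 0.125 and Pdk4 at 2.82 ± 0.13 FPKM were the lowest. In hippocampus Con, Nr3c2 led at 51.0 FPKM, and Sgk1, Zbtb16 and Tsc22d3 followed at 25.8 ± 4.13, 24.3 ± 3.61 and 23.7 ± 0.584 FPKM, within each other's spread. The coefficient of variation within groups of 3 was at most 27.7%, for Sgk1 in cortex IR, and at least 0.349%, for Hsd11b1 in hippocampus Con.

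The genes most like Fkbp5 over the 12 libraries, after centring log2(FPKM + 1) on each tissue, were Thsd4 (Pearson r = 0.93), Dus2 (0.92), Grhl1 (0.90), Tmem121 (0.89) and Tcf4 (0.88), out of 13648 genes compared. Among the other 9 genes of the set the closest was Zbtb16 (0.61) and the farthest Nr3c1 (-0.50). These correlations over libraries that share groups are a description only.

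The wider glucocorticoid response was read from 28 other induced targets, of which 27 were tested and Lcn2 was too low, at 0 to 0.256 FPKM. In the cortex 3 passed the adjusted threshold, where 0.562% of all genes were called higher and 0.164% lower. At an unadjusted p under 0.05, 9 had higher and 1 had lower values in IR, where 14.1% of all genes had such a p. The groups of 11 lay apart with higher values in IR, where those of 11.2% of all genes did, and the groups of 1 with lower values. Camk1g, the gene of a neuronal calcium-dependent kinase, rose from 10.7, 11.2 and 11.6 FPKM to 16.6, 16.6 and 14.8 FPKM (log2 fold change 0.48, adjusted p = 0.0142). Irs2, which encodes an adaptor of the insulin receptor, rose from 8.0, 8.39 and 10.3 FPKM to 12.4, 13.3 and 12.6 FPKM (0.48, adjusted p = 0.0423). Mt2, a metallothionein gene, fell from 186, 185 and 190 FPKM to 150, 153 and 150 FPKM (-0.31, adjusted p = 0.0218). Without cortex IR 2 the adjusted p-values were 0.0734, 0.137 and 0.0998, and 0 of the 27 passed. The number called also fell to 0 without IR 1, to 1 (Camk1g) without Con 1 or without IR 3, and was 2 without Con 2 and 3 without Con 3.

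In the hippocampus 0 of these 27 targets passed the adjusted threshold, and 4 had an unadjusted p under 0.05, where 13.9% of all genes did, namely Gjb6, Gpd1 and Fam107a with higher values and Sdc4 with lower values. Without hippocampus Con 3, Mt1 (0.29, adjusted p = 0.0499) and Sdc4 (-0.31, adjusted p = 0.0427) passed, in a fit that called 861 of 14043 genes (6.13%). Averaged over both tissues, 5 of 27 rose, where 1.37% of all genes were called higher. They were Gjb6 (an astrocytic connexin, log2 0.26, adjusted p = 0.0213), Gpd1 (glycerol-3-phosphate dehydrogenase, 0.21, adjusted p = 0.0280), Irs2 (0.33, adjusted p = 0.0393), Fam107a (0.26, adjusted p = 0.0490) and Tiparp (0.37, adjusted p = 0.0497). Gjb6 measured 21.7, 21.0 and 22.0 FPKM in cortex Con against 25.1, 26.5 and 26.8 FPKM in IR, and 17.5, 15.1 and 16.9 FPKM in hippocampus Con against 18.4, 20.9 and 20.1 FPKM in IR, with no overlap in either tissue. Without the 3 libraries with high choroid plexus markers, 0 of 27 passed and the adjusted p of Gjb6 was 0.103. Leaving out single libraries gave between 0 and 6, with 0 without cortex IR 1, cortex IR 3 or hippocampus IR 3. Over the 27 the median log2 fold change was 0.13 for cortex and 0.02 for hippocampus. For the difference between the tissues, hippocampus minus cortex, 0 of 27 passed the adjusted threshold, where 0.083% of all genes did. An unadjusted p under 0.05 was found for 7, all with values below 0, where 10.4% of all genes had such a p.

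**Figure D5:**
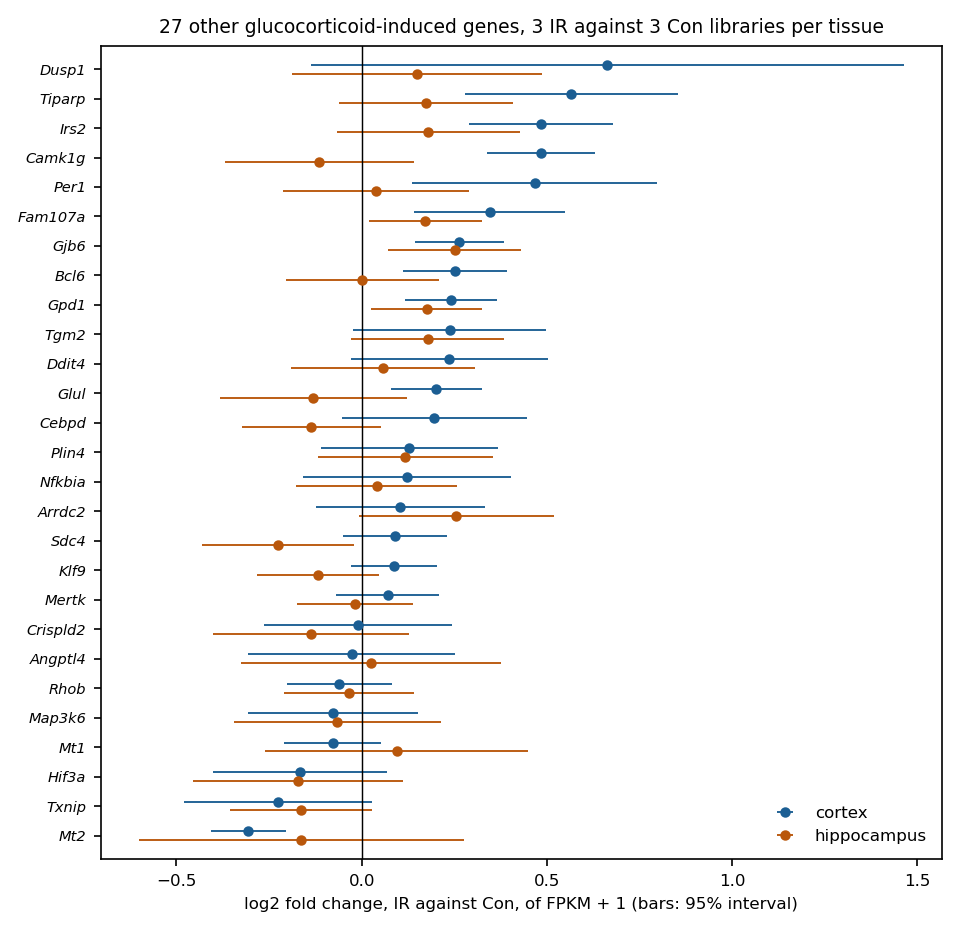
Log2 fold change of IR against Con in the cortex and the hippocampus for the 27 other glucocorticoid-induced genes tested (3 libraries per group), ordered by the cortex value, with 95% intervals. Camk1g and Irs2 (0.48 each) and Mt2 (-0.31) passed the adjusted threshold in the cortex, and 0 passed in the hippocampus.

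The genes around the receptor were read in the same way. Of 8 chaperones of the receptor complex and 10 coregulators, 0 passed the adjusted threshold in either tissue. At an unadjusted p under 0.05, Hspa8, Stip1, Ptges3 and Fkbp4 of the chaperones had higher values in the cortex, where 14.1% of all genes had such a p, and Stip1 and Hspa8 in the hippocampus, where 13.9% did. Among the coregulators Ncoa3 did so in the cortex. Averaged over both tissues Hspa8, a constitutive heat shock cognate chaperone, rose (log2 0.20, adjusted p = 0.0467), where 1.37% of all genes were called higher. Its adjusted p was 0.217 without the 3 choroid-high libraries, and it passed in 1 of 12 leave-outs of 1 library.

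Of 10 genes of steroid synthesis, metabolism and transport, 6 were tested and 0 passed in either tissue. Serpina6, the gene of the corticosteroid carrier of blood, was listed at 0 in all 12 libraries. On average over both tissues Cyp11a1, which encodes the side-chain cleavage enzyme of steroid synthesis, rose (log2 0.34, adjusted p = 0.0284), with means of 1.55 FPKM in cortex Con, 2.42 FPKM in cortex IR, 0.675 FPKM in hippocampus Con and 0.997 FPKM in hippocampus IR. It passed in 2 of 12 leave-outs of 1 library, and its adjusted p was 0.184 without the 3 choroid-high libraries. For the average effect 1.37% of all genes were called higher. Of 8 genes that glucocorticoids are known to repress in some cells, 5 were tested and 0 passed. Whether glucocorticoids repress them in the cortex or the hippocampus was not tested. Ptgs2 (log2 0.44, adjusted p = 0.0856) and Crh (0.49, adjusted p = 0.217) had an unadjusted p under 0.05 in the cortex, both with higher values in IR. Such a p was found for 14.1% of all genes in the cortex.

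Clock genes and immediate early genes, which neuronal activity induces, were read as well. Of 12 clock genes, Arntl and Per2 rose and Dbp, Ciart and Nr1d1 fell in the cortex, where 0.562% of all genes were called higher and 0.164% lower. In the hippocampus 0 passed and 4 had an unadjusted p under 0.05, where 13.9% of all genes did, among them Dbp (log2 -0.80, adjusted p = 0.0823) and Ciart (-0.53, adjusted p = 0.214). Averaged over both tissues Arntl, Per2 and Cry1 rose and Dbp, Ciart and Nr1d1 fell, where 1.98% of all genes were called. For the difference between the tissues 0 of 12 passed, where 0.083% of all genes did. At an unadjusted p under 0.05 that difference was above 0 for 4 clock genes and below 0 for 3, where 10.4% of all genes had such a p. On average Dbp and Ciart passed in 12 of 12 leave-outs of 1 library, Per2 in 11, Nr1d1 in 10, Arntl in 5 and Cry1 in 1, and without the 3 choroid-high libraries Dbp and Ciart passed and the other 4 did not (adjusted p = 0.0632 to 0.232). Of 8 immediate early genes, Fosb rose in the cortex (log2 0.77, adjusted p = 0.0303), all 8 had log2 fold changes above 0 and the groups of 7 did not overlap, where the groups of 20.3% of all genes did not and 11.2% were higher. Without the choroid-high cortex IR 2, Per2, Dbp, Ciart and Nr1d1 still passed, while Arntl (adjusted p = 0.123) and Fosb (adjusted p = 0.0665) did not. Over 6 leave-outs of 1 cortex library, Per2, Dbp and Ciart passed in 6, Nr1d1 in 5, Arntl in 1 and Fosb in 0. In the hippocampus 0 of 8 passed, and Fos had an unadjusted p under 0.05. Per1, on both the clock list and the list of induced targets, measured 20.5, 26.7 and 29.3 FPKM in cortex Con and 29.5, 36.9 and 40.0 FPKM in cortex IR (adjusted p = 0.216). The time of day of tissue collection is not given in the sources used here, and its part in these values was not tested.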

How the data were processed

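Cortex and hippocampus RNA of sham and irradiated mice was sequenced from libraries prepared with a directional kit. The labels name Trizol extraction and total RNA and the study's methods a column kit and poly(A) selection, and this was not settled. The authors mapped reads with TopHat (mm10, per the labels) and deposited FPKM, estimated with Cufflinks, as 1 file per library. The methods also name a geometric normalization, and whether the deposited FPKM carry it is not stated. Read depth is unknown. Deposited FPKM summed to 359773 to 393447 per library. Values were tested as log2(FPKM + 1) with limma 3.58.1 (R 4.3.3, trend and robust prior, Benjamini-Hochberg adjustment over all genes tested) within each tissue, after dropping genes that did not reach 0.5 FPKM in 3 or more of its 6 libraries. The tissue difference, the average effect and hippocampus against cortex came from 1 fit over 12 libraries with 4 groups. Scripts were tested on simulated data. Positions follow GENCODE M21 (GRCm38). The named genes were all 10 members, list genes with an adjusted p under 0.05 (otherwise at most the 4 of lowest p in a tissue) and the 5 genes most like Fkbp5; list genes called on average, marker genes and single genes named for a low count were added after their values were seen, and 1 list gene is not reported here. Members, lists and tests were chosen with earlier results of these data known. Alternatives covered filters, pseudocounts, normalization, moderation, pairing, pooled fits and left-out libraries, those on choroid plexus markers, list leave-outs and the IR tissue contrast being added after seeing the data.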

Additional observations from a re-analysis of the deposited data

Results flagged for a closer look

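Tsc22d3 stood out because the difference of its irradiation effects between the tissues had an unadjusted p under 0.05, the lowest of the 10 genes. The effect in the hippocampus minus that in the cortex was -0.48 on the log2 scale, with an unadjusted p of 0.00243 and an adjusted p of 0.242 in limma over 14459 genes, so the difference did not pass the adjusted threshold. In the main fit the other 9 genes had unadjusted p-values above 0.05 for that difference. Over the alternatives and leave-outs tried, the lowest was 0.00302 for Sgk1, 0.0135 for Zbtb16, 0.0464 for Hsd11b1 and 0.0479 for Nr3c1. The adjusted p of Tsc22d3 ranged over them from 0.0847 to 0.831.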

How the results depend on the processing

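No member call changed under any alternative for the irradiation contrasts at the adjusted threshold (0 of 10), nor between the tissues (7 of 10). At a fold of 1.5, the tissue difference called 1 member, Tsc22d3, without hippocampus IR 3 (range 0 to 1), and 0 otherwise. Of 750 member values under alternatives, 0 crossed the threshold and 44 changed sign. Counts over all genes were less stable, and the cause was not tested. For the cortex, adjusted calls were 102, and 24 with no filter, 22 without trend and robust prior and 17 to 77 without single libraries; calls at a fold of 1.5 were 68, and 234 and 130 at pseudocounts of 0.1 and 0.5, 263 by the ratio of means and 67 to 88 without single libraries. For the hippocampus, adjusted calls were 4, and 2 with the 1-FPKM filter, 73 in a fit of all 12 libraries, 1 without the 2 choroid-high libraries and 2 to 861 without single libraries, with 861 without Con 3; calls at a fold of 1.5 were 74, and 223 and 138 at pseudocounts of 0.1 and 0.5, 243 by the ratio of means and 53 to 220. For the tissue difference, adjusted calls were 12, and 0 without trend, 19 with the 1-FPKM filter, 0 without the 3 choroid-high libraries and 0 to 487; calls at a fold of 1.5 were 140, and 315 at a pseudocount of 0.1, 92 with the filter and 132 to 305. For the average effect, adjusted calls were 287, and 21 without the 3 choroid-high libraries and 27 to 1351; calls at a fold of 1.5 were 29, and 148 at a pseudocount of 0.1 and 24 to 43.

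Signs changed in the hippocampus without the 2 choroid-high libraries for Nr3c2 (0.0502), Fkbp5 (0.0647), Sgk1 (0.0516), Zbtb16 (0.0216) and Sult1a1 (0.101), on average without 3 for Fkbp5 (0.0527) and Zbtb16 (0.111), for Errfi1 in the tissue difference at a pseudocount of 0.1 (-0.0049) and for Sgk1 between the tissues in IR (-0.0859). Leave-outs gave, in the cortex, Fkbp5 -0.164 to 0.0408; in the hippocampus, Nr3c2 -0.104 to 0.0352, Fkbp5 -0.0947 to 0.0211, Sgk1 -0.114 to 0.0779 and Sult1a1 -0.115 to 0.0276; for the difference, Fkbp5 -0.0754 to 0.129 and Errfi1 -0.0854 to 0.0546; on average, Nr3c1 -0.00976 to 0.0498, Nr3c2 -0.0236 to 0.0478, Hsd11b1 -0.0350 to 0.0353, Fkbp5 -0.0993 to 0.00308, Zbtb16 -0.0573 to 0.0507 and Sult1a1 -0.00226 to 0.0860.

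The labels do not say whether same-numbered libraries share a mouse or batch. Numbers were not treated as pairs, because a correlation over 0.1 in every pair was required, and sharing itself was not tested. The correlations of same-numbered Con and IR libraries were -0.105 to 0.107 in the cortex and -0.392 to -0.0824 in the hippocampus, and those of the same arm and number across tissues -0.0826 to 0.173. With the number as a replicate block, calls were 71 in the cortex, 1 in the hippocampus and, with arm and number as 1 mouse, 19 for the tissue difference, and 0 members passed. Read depth was not given, so counting error could not be separated from other spread.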
